A study of Mus musculus with 4 samples.

Results

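The nail plate is made by the nail matrix, a dividing epithelium under the nail fold. The 4 genes described here stand for its positional identity and for the signal of bone morphogenetic proteins (BMPs). They are the homeobox genes Hoxc13 and En1, the BMP receptor gene Bmpr1a and Id2, a gene that BMP signals turn on. The members were all probe sets that the authors' fold change list assigns to these symbols, which came to 4 probe sets for 4 genes, of 1435 listed and 45037 measured probe sets. The list names 1133 genes. A probe set is a group of short oligonucleotides that read a transcript. The samples were distal matrix, 2 arrays, and proximal matrix, 2 arrays, microdissected from intact nails of mice aged 8 weeks. The labels give no strain, genotype or treatment. They do not say whether the arrays of a region came from separate animals or pools. The spread between them may therefore be technical.

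The authors' list holds probe sets chosen by their fold change between the same arrays, past a cut-off of about 2. The members carry a name only because they were selected on these distal and proximal values, so their differences are given as a description and not tested. In the authors' deposited table En1 was 3.72-fold higher in distal matrix, and Hoxc13, Bmpr1a and Id2 were 3.37-fold, 3.36-fold and 2.75-fold higher in proximal matrix. Id2 lay nearest to the cut, with 380 of the 1435 listed probe sets at a larger fold. Probe sets outside the list are not named here.

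BMPs are secreted ligands that bind a pair of receptor kinases, of which Bmpr1a is a type I member. The receptors phosphorylate Smad proteins, which enter the nucleus and turn on targets such as the Id genes. Id proteins lack a DNA-binding region and hold bHLH transcription factors off their E-box sites. In the hair follicle, a close relative of the nail in mammalian skin, Bmpr1a is needed for matrix cells to differentiate. Hoxc13 encodes a homeodomain factor of hair and nail, and mice without it have brittle hair and defective nails. En1 encodes a homeodomain factor of the ventral limb ectoderm, and mice without it form nail on the ventral side of the digits.

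Promoters are shown for Id2, the BMP target that was higher in proximal matrix, and for En1, the member that was higher in distal matrix. Each is the 250 bases before the annotated start, 5′ to 3′ on the gene's strand, from RefSeq on GRCm38.p6. Capitals mark GGCGCC, a GC-rich Smad motif, and AGAC or its reverse complement GTCT, the short Smad box.
Id2 (chr12:25096093-25096342, minus strand): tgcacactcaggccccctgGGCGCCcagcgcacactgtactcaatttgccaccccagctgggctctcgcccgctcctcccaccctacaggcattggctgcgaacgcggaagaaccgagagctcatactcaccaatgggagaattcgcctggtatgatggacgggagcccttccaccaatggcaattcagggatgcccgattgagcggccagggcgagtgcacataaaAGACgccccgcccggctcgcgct
En1 (chr1:120602237-120602486, plus strand): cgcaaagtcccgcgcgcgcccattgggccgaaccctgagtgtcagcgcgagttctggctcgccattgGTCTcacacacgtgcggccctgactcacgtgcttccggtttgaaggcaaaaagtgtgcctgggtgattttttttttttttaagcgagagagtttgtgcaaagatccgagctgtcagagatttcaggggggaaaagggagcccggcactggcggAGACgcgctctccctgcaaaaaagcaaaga
GGCGCC occurred 1 time in the Id2 window, 1 time in the matching window of Bmpr1a and 0 times in that of En1. Of 32817 RefSeq promoter windows of this length, 9.59% hold it. AGAC on either strand occurred 1 time for Id2, 2 times for En1 and 0 times for Bmpr1a, and 82.9% of the windows hold it. The E-box CANNTG occurred 1 time for Id2, 2 times for En1 and 0 times for Bmpr1a, and 66.2% of the windows hold it. No match overlapped another in these 3 windows. A match of letters is a description and does not show a bound site.

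Hoxc13 (Entrez gene 15422) had intensities of 136 and 120 on the distal arrays, against 401 and 664 on the proximal arrays. Both proximal arrays were high and the groups did not overlap. The lower proximal array stood 2.95-fold above the higher distal array, the widest gap of the 4 genes. The distal arrays differed from each other by 1.13-fold and the proximal arrays by 1.65-fold. The log2 difference, distal minus proximal, was -2.01 ± 0.57 (limma's standard error, n = 2 arrays per region), which is 4.04-fold higher in proximal matrix. Leaving out 1 array at a time gave -2.38 to -1.65.

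En1 (Entrez gene 13798) was the member with the opposite direction. It had intensities of 192 and 304 on the distal arrays, against 133 and 42.3 on the proximal arrays. Distal replicate 2 was highest and proximal replicate 2 lowest, and the groups did not overlap, with a gap of 1.45-fold. Its proximal arrays differed from each other by 3.14-fold, nearly as much as the regions did. As the background of each array served the brightest of its 27 Bacillus subtilis controls, which read genes that mouse RNA does not contain. This control had intensities of 58 and 81 in the distal samples, against 96.8 and 45.4 in the proximal samples. En1 was above it on both distal arrays and on proximal replicate 1, and below it on proximal replicate 2. The log2 difference was 1.69 ± 0.78 (SE, n = 2 per region), a 3.22-fold higher distal level. This standard error is narrower than the arrays of En1 alone would give, as limma pools the spread over probe sets. The SD between replicates of En1 was 0.89. The log2 difference was 0.86 (1.82-fold) without proximal replicate 2. Without proximal replicate 1 the proximal value is not above background, and En1 was at least 5.33-fold higher in distal matrix, so the size rested on which proximal array was kept.

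Bmpr1a (Entrez gene 12166), the receptor gene, had intensities of 191 and 164 on the distal arrays, against 394 and 341 on the proximal arrays. Arrays of a region differed by 1.17-fold in distal and 1.16-fold in proximal matrix, and the groups were 1.79-fold apart at their nearest. The log2 difference was -1.05 ± 0.57 (SE, n = 2 per region), or 2.08-fold higher in proximal matrix. The standard error is wider than these arrays alone would give because limma pools the spread over all probe sets of like intensity. In the authors' deposited table the log2 difference was -1.75, a 3.36-fold difference. The cause of this gap in size was not tested.

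Id2 (Entrez gene 15902), the BMP target gene, had intensities of 336 and 343 on the distal arrays, against 571 and 942 on the proximal arrays. The distal arrays were nearly equal, at 1.02-fold, while proximal replicate 2 stood 1.65-fold above proximal replicate 1. The groups did not overlap, with a gap of 1.67-fold. The log2 difference was -1.11 ± 0.45 (SE, n = 2 per region), or 2.16-fold higher in proximal matrix, and -1.47 to -0.75 with 1 array left out. In bulk tissue, fewer cells of a type and less RNA per cell cannot be told apart, for Id2 as for the other 3 genes.

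**Figure D1:**
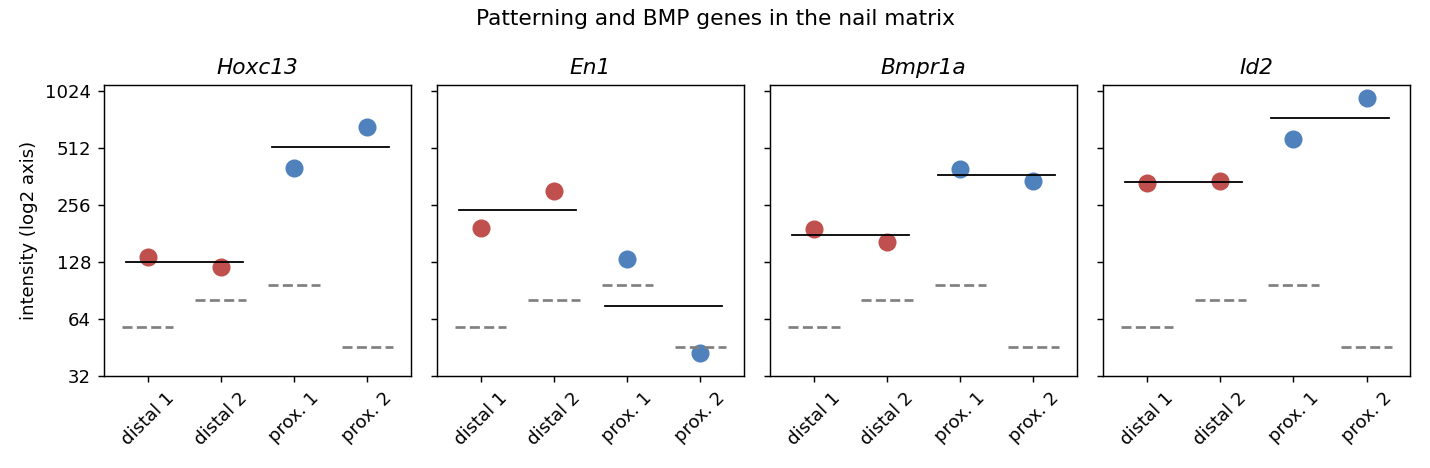
Intensity on a log2 axis of Hoxc13, En1, Bmpr1a and Id2 on each array, distal in red and proximal in blue. Black lines are the means of the log2 values per region and dashed grey lines the brightest Bacillus subtilis control of each array. Hoxc13, Bmpr1a and Id2 lie higher on both proximal arrays, and En1 lies higher on both distal arrays and falls below the control on proximal replicate 2.

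Over all probe sets, limma called 30 of 45037 at a Benjamini-Hochberg adjusted p under 0.05, which is 0.0666%, and 0 of the 4 members were among them. Before adjustment 2294 had p under 0.05, with 3 members among them, from which nothing is read as the members were selected on this contrast. Intensities did not overlap between regions for 4 of 4 members. The same held for 34.7% of all probe sets and for 74.1% of the listed ones, and the list was drawn from this contrast, so nothing is read from the count. Of the members, 3 were higher in proximal matrix, as were 70.7% of listed and 52% of all probe sets by their mean. The median log2 difference was -0.06 over all probe sets and -1.02 over the listed ones.

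A ratio of 2 genes within an array does not depend on a scaling that multiplies all its probe sets alike. Quantile normalization is no such scaling and can change the ratio. The shift of the ratio between regions was examined, while its level has no meaning across probe sets. The log2 ratio of Hoxc13 over En1 was -0.50 and -1.34 on the distal arrays, against 1.59 and 3.97 on the proximal arrays. Its shift, distal minus proximal, was -3.70, the sum of both genes' opposite differences. The 3.97 and this shift rest in part on En1 on proximal replicate 2, where it was below background. The log2 ratio of Bmpr1a over Id2 was -0.82 and -1.07 on the distal arrays, against -0.54 and -1.47 on the proximal arrays. The distal values lay between the proximal ones, and the shift of 0.06 was smaller than the difference between the proximal arrays. Bmpr1a was brightest on proximal replicate 1 and Id2 on proximal replicate 2. Both genes were listed for fold change on this contrast and were higher in proximal matrix, so nothing is read from the small shift. By the authors' group values Bmpr1a had the larger log2 difference, at -1.75 against -1.46 for Id2. Hoxc13 over Id2 shifted by -0.90 and Hoxc13 over Bmpr1a by -0.96, as Hoxc13 had the larger difference.

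Scaling each array to its hybridization controls moved the median log2 difference of all probe sets to -0.57. The differences were then -2.52 for Hoxc13, 1.18 for En1, -1.56 for Bmpr1a and -1.62 for Id2. Relative to the median of all probe sets they were -1.96, 1.74, -1.0 and -1.06, as they were for the deposited values. This holds by construction, as the scaling shifts all probe sets of an array alike. Of the alternatives run, only the 3 scalings and the authors' group values could turn a direction, and none of the 4 directions turned. Median centring and control scaling shift all 4 genes alike, here by less than any member's difference. The offset acts alike on each array, so it cannot turn groups that do not overlap.

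**Figure D2:**
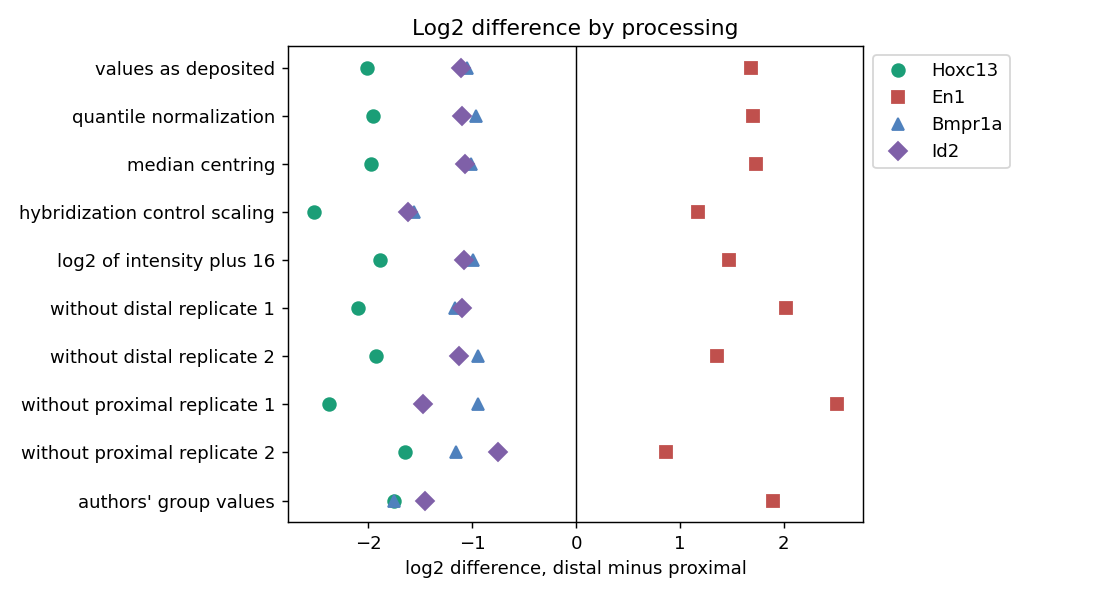
Log2 difference, distal minus proximal, of the 4 genes (symbols) for the values as deposited and under each scaling, offset, left-out array and the authors' own group values (rows). Hoxc13, Bmpr1a and Id2 stay left of 0 and En1 right of 0 in every row, with En1 running from 0.86 to 2.52, the higher value against a proximal array below background. Neither leaving out an array nor the offset can turn groups that do not overlap.

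The rest of the BMP pathway could be seen only where the authors' list names it. Gene lists, here and below, were looked up only among the listed probe sets with 1 symbol. Of 13 receptor and co-receptor genes of the BMP and related TGF-beta pathways, 3 were listed, and all 3 had higher intensities in proximal matrix under each scaling and with each array left out. Beside Bmpr1a these were Acvr2a, a type II receptor gene for activins and BMPs, and Tgfbr1, the type I receptor gene for TGF-beta. Acvr2a had intensities of 158 and 150 on the distal arrays, against 689 and 431 on the proximal arrays. Tgfbr1 had 538 and 518 on the distal arrays, against 900 and 1201 on the proximal arrays. Their log2 differences were -1.82 ± 0.54 and -0.98 ± 0.39 (SE, n = 2 per region). Distal arrays were near equal and below both proximal arrays for each of these receptors, and 0 of the 3 passed limma's adjusted threshold (2 at an unadjusted p under 0.05). They were listed for fold change, as Bmpr1a was, so their shared direction is no independent evidence.

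Of 13 BMP ligand genes, 12 Smad and other signal carrier genes and 18 BMP inhibitor genes, 0 were among the listed probe sets with 1 symbol. They are not analysed here. Of 14 BMP target genes, Id2 was the 1 listed. Of 13 genes of bHLH factors that Id proteins may bind or that act beside them, the 1 listed was Tcf4, the gene of an E protein. Tcf4 had intensities of 117 and 72.5 on the distal arrays, against 255 and 162 on the proximal arrays. Distal replicate 2 was below the Bacillus subtilis control, and the log2 difference was -1.14 ± 0.75 (SE, n = 2 per region), not called by limma. Id2 and Tcf4 were both higher in proximal matrix, as were 70.7% of all listed probe sets. They were listed for fold change on this contrast, so their shared direction is no independent evidence.

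Of 31 limb and nail patterning genes, Hoxc13 and En1 were the 2 listed. The authors' list also carries Gene Ontology terms, and some of those held by members were followed after the values had been seen. Not all of these are given here. Anterior/posterior pattern formation, held by Hoxc13 and Bmpr1a, covered 11 listed genes. All 11 were higher in proximal matrix under each scaling, with 0 called by limma (6 at an unadjusted p under 0.05), a median log2 difference of -1.15 and 10 of 11 not overlapping. Among all listed probe sets 70.7% were higher in proximal matrix and 74.1% did not overlap, and these genes were listed on the same contrast. Without proximal replicate 2 it was 10 of 11, as Mll1 (now Kmt2a) turned to 0.08. Among them Emx2, another homeobox gene, had 265 and 199 on the distal arrays, against 486 and 453 on the proximal arrays. Hair follicle development, also held by Hoxc13, was mixed in direction. It covered 4 listed genes, with 2 higher in distal and 2 in proximal matrix.

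The terms of En1 were mixed in direction. Dorsal/ventral pattern formation covered En1, Bmpr1a and Lrp4, and proximal/distal pattern formation also covered 3 listed genes, with En1 alone higher in distal matrix in each. Lrp4, a receptor gene whose loss in mice disturbs limb and digit formation, had intensities of 47.0 and 114 on the distal arrays, against 376 and 364 on the proximal arrays. Both proximal arrays were high. Its log2 difference was -2.34 ± 0.70 (SE, n = 2 per region), and distal replicate 1 was below the control. Embryonic limb morphogenesis covered 6 listed genes, of which En1 and Wnt5a were higher in distal matrix and 4 in proximal matrix, or 3 and 3 without distal replicate 2. Sequence-specific DNA binding, a term shared by Hoxc13 and En1, covered 29 listed genes. Of these, 25 were higher in proximal matrix (26 when scaled to hybridization controls), beside 70.7% of all listed probe sets. The median log2 difference was -1.62, or -1.46 where background stood in for regions with no array above it. These genes were listed on the same contrast, so nothing is read from the count. En1 was 1 of the 4 higher in distal matrix, and limma called 0 of the 29 (19 at an unadjusted p under 0.05).

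**Figure D3:**
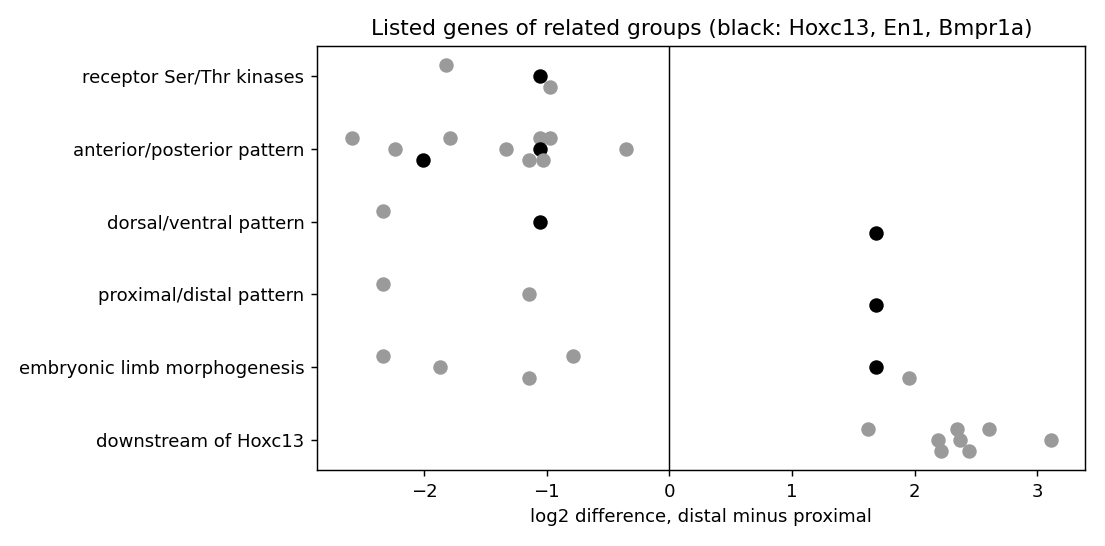
Log2 difference, distal minus proximal, of the listed genes in groups related to the members (rows), each point 1 gene by its brightest listed probe set, with Hoxc13, En1 and Bmpr1a in black. All 3 receptor kinase genes and all 11 genes for anterior/posterior pattern formation lie left of 0, and all 8 listed genes downstream of Hoxc13 lie right of 0. The genes of every row were listed for fold change on this contrast.

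Hoxc13 in mice acts on genes of hair keratins and keratin-associated proteins, the proteins of the hard plate and shaft. Of 36 such genes and related hair factors, 8 were listed, all keratin-associated protein genes. All 8 were higher in distal matrix under each scaling, opposite to Hoxc13, while 70.7% of all listed probe sets were higher in proximal matrix. They were listed for fold change on this contrast, and the gene list was written with earlier results of these data known. Their shared direction is thus no independent evidence, and a relation to Hoxc13 was not tested. Limma called 3 of them for the values as deposited, against 0.0666% of all probe sets, and 0 under each of the 3 other scalings. Their median log2 difference was 2.36, or 2.20 where background stood in for the proximal values of Krtap6-1 and Krtap6-3, which did not exceed it. The brightest was Krtap16-7 (now Krtap21-1), which had 2287 and 2630 on the distal arrays, against 870 and 330 on the proximal arrays. Of the next brightest, the log2 difference was 2.34 for Krtap6-2, 2.21 for Krtap8-1, 3.11 for Krtap16-8 (now Krtap6-5) and 1.62 for 1110032D16Rik (now Krtap22-2). Krtap16-8 and 1110032D16Rik were below the control on proximal replicate 1. Krtap6-1 had 307 and 284 on the distal arrays, against 67.5 and 43.4 on the proximal arrays. Probe sets of this family may read more than 1 of its genes.

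The genes most like each member were sought among the listed genes above background on both arrays of a region. Likeness was the root mean square distance between log2 profiles over the 4 arrays, each less its own mean, and 1006 genes were compared with each member. Nearest to Hoxc13 were Acsl4, Abhd13 and Fam132a (now C1qtnf12), at 0.13, 0.18 and 0.18. Acsl4 and Fam132a were not above background on the distal arrays, nor was Abhd13 on distal replicate 2, so these distances rest in part on values at background. Nearest to En1 were BC018507 (now Ice1), the ligand gene Wnt5a and the chemokine gene Cxcl2, at 0.10, 0.22 and 0.24. En1 and BC018507 were below background on proximal replicate 2, so the distances to En1 also rest in part on values at background. Wnt5a had intensities of 496 and 606 on the distal arrays, against 223 and 90.2 on the proximal arrays, so it shared with En1 the low value on proximal replicate 2. Nearest to Bmpr1a were Rbm27, Mgat5 and Znhit3, at 0.06, 0.06 and 0.07, and nearest to Id2 were Rab15, Casp4 and Armc8, at 0.09, 0.10 and 0.10. With 4 arrays many genes come this close, and the list had already chosen genes that differed between regions.

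The labelled tissue could be checked with few markers. Of 10 genes of matrix keratinocytes, Krt42 and Krt15 were listed, both were above background on all 4 arrays, and they differed between regions in opposite directions. The log2 difference was 3.36 for Krt42, the direction of En1, and -1.65 for Krt15, the direction of Hoxc13, Bmpr1a and Id2. Their part in the members' differences was not tested. Of 8 dermal fibroblast genes, Dcn was listed, and it had 243 and 310 on the distal arrays, against 984 and 1049 on the proximal arrays. Dcn thus moved with Hoxc13, Bmpr1a and Id2, with a log2 difference of -1.89 ± 0.43 (SE, n = 2 per region), and its part in their differences was not tested. Of the markers of endothelial and mural (6), bone (5), immune (5), and pigment and Schwann cells (7), 0 were listed. RNA length was gauged by Gapdh, as the intensity at its 3′ end over that at its 5′ end. This ratio was 9.40 and 6.73 for distal RNA, against 7.73 and 8.15 for proximal RNA. The same ratio of beta-actin was 0.52 and 0.59 for distal RNA, against 0.56 and 0.64 for proximal RNA, far below that of Gapdh. The part of RNA quality in the members' differences was not tested.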

How the data were processed

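The value table deposited by the authors gives intensity on a linear scale. Its scaling method is not given in the sources, and the trimmed mean (2% off each end) came to 150.0 for all arrays. The authors' list, per the file headers, comes from a fold change workflow on Mouse430_2 arrays with a fold cut-off of about 2. Its fold is an unsigned ratio, and its deposited group columns are log2 values, whose summarisation no header or label states. Per the labels' protocols, Trizol was used for total RNA and a 3′ kit for labelling.

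Values were floored at 1 before log2. Without the 64 controls, 45037 probe sets were fitted with limma 3.58.1 in R 4.3.3 (lmFit, eBayes with variance trend), two-sided, with Benjamini-Hochberg adjustment at 0.05. The fit was tested on simulated data. The number of arrays limits the precision. A gene was represented by its brightest listed probe set, and each member had 1. Gene names come from the list's 1234 probe sets with 1 symbol (1133 genes, 1060 matched in RefSeq, GRCm38.p6, for current symbols), and 50 had several symbols and 151 none. The genes named were the members, up to 6 listed genes per gene list by intensity, and the 3 nearest profiles per member, besides Gene Ontology genes chosen after their values were seen, of which 1 is not reported here. The members and lists were chosen with earlier results of these data known. Alternatives were quantile normalization, median centring, scaling to 18 hybridization controls, brighter probe sets only, an offset of 16, no variance trend, a replicate block, each array left out, the authors' group values and the mean over probe sets.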

Additional observations from a re-analysis of the deposited data

How the results depend on the processing

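The 3 scalings and the authors' group values could turn or move the 4 genes' differences, and the offset could only move them. Of these 20 values 0 changed direction, 16 moved by less than the SD between replicates and 4 by more. The 4 were Hoxc13 (-2.52), Bmpr1a (-1.56) and Id2 (-1.62) under hybridization control scaling, and Bmpr1a (-1.75) by the authors' group values. Control scaling shifted En1 alike, from 1.69 to 1.18. En1 was not counted because its SD between replicates was 0.89, against 0.15 to 0.37 for the other genes. The brighter probe sets, no variance trend, the block and the mean over probe sets leave a difference as it is by construction, and leaving out an array cannot turn groups that do not overlap. With arrays left out in turn, the differences ranged from -2.38 to -1.65 for Hoxc13, 0.86 to 2.52 for En1, -1.16 to -0.94 for Bmpr1a and -1.47 to -0.75 for Id2, with the 2.52 of En1 resting on a proximal value below background. The count of 30 called probe sets (24 distal, 6 proximal) was 9 under quantile normalization, 8 under median centring, 12 (3 distal, 9 proximal) under hybridization control scaling, 2 among the brighter 22518 probe sets, 17 with the offset of 16 and 0 by limma without the variance trend, where 3010 were under 0.05 before adjustment. Single arrays left out gave 4 to 899 calls, with 899 (306 distal, 593 proximal) without distal replicate 1, 635 (233 distal, 402 proximal) without distal replicate 2, 4 without proximal replicate 1 and 7 without proximal replicate 2. Hoxc13 was among the calls when either distal array was left out, where the proximal arrays alone gave the spread. The other settings called 0 members. Same-numbered arrays did not deviate together (correlation of deviations across probe sets -0.01). With 2 arrays per region this cannot show whether same-numbered samples were paired, and the titles give only a replicate number. With the replicate block 90 probe sets were called (53 distal, 37 proximal). The causes of these changes in the counts were not tested. Signal over background limits En1 in proximal matrix.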
